A study of Mus musculus with 28 samples.

Results

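The Krüppel-like factors (KLFs) are DNA-binding proteins, and the expression of 8 KLF genes is described here in murine bone marrow-derived macrophages (BMDMs). The 8 genes were taken from a list of named genes and are Klf2, Klf3, Klf4, Klf6, Klf7, Klf9, Klf10 and Klf13, out of 54532 genes with deposited counts. All BMDMs were grown from bone marrow of C57/B6JB mice, kept overnight in serum with M-CSF, washed, and given fresh medium with CaCl2. They then received PBS (control), plasma-derived von Willebrand factor (pd-VWF, human, 10 µg/ml) or bacterial lipopolysaccharide (LPS, at 100 ng/ml), and were harvested after 3.5 h or 16 h. RNA was sequenced from 28 cultures, with 5 control, 5 VWF and 4 LPS cultures at each time. The labels call the cultures biological replicates but do not say whether each came from its own mouse, so p values measure the spread between these cultures. The comparisons ask how VWF, a clotting protein, changes each KLF gene early and late, and where its effect differs from that of LPS, the classical activator of macrophages.

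KLF proteins bind CACCC boxes and GC-rich promoters through zinc fingers at their C-terminus, sites that they share with the SP factors. Klf2 and Klf4 encode activators that restrain inflammatory gene expression in endothelial cells and macrophages, and Klf4 is also known for its role in alternative activation. Klf6 and Klf7 encode related activators, Klf3 encodes a repressor that recruits the corepressor CtBP, and Klf9, Klf10 and Klf13 encode factors that recruit the corepressor Sin3A. Transcription of Klf2 and Klf4 is known to depend on the kinase ERK5 and the MEF2 factors in endothelial cells.

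Each gene had a single identifier in the count table and was annotated as protein coding in GRCm38. Klf2 (ENSMUSG00000055148) lies on chr8:72319033-72321656, Klf3 on chr5:64803388-64832901, Klf6 on chr13:5861482-5870394 and Klf9 on chr19:23141226-23168134, all on the plus strand. On the minus strand lie Klf4 (chr4:55527143-55532466), Klf7 (chr1:64029447-64122282), Klf10 (chr15:38291463-38300706) and Klf13 (chr7:63886351-63938915). RefSeq promoter windows, from 250 bases before to 50 bases after the start, were matched for 7 of the 8 genes, the exception being Klf10. The sequence just upstream of the gene is shown for 3 activators that were called differently after VWF. These are Klf2 (called lower late only), Klf4 (called lower early and late) and Klf6 (called higher early only). The sequences are from RefSeq on GRCm38 and read 5′ to 3′ on the strand of the gene. They cover chr8:72318812-72319032 for Klf2, chr4:55532476-55532725 for Klf4 and chr13:5861239-5861481 for Klf6. Capitals mark matches, on either strand, to the CACCC box (letters CACCC), the GC box (GGGCGG), the core of the cAMP response element (TGACG) and the consensus of the MEF2 factors.
Klf2: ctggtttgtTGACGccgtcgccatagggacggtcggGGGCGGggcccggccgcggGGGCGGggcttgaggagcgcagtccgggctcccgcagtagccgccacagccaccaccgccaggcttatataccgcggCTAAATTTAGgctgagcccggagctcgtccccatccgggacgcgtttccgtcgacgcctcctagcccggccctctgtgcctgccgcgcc
Klf4: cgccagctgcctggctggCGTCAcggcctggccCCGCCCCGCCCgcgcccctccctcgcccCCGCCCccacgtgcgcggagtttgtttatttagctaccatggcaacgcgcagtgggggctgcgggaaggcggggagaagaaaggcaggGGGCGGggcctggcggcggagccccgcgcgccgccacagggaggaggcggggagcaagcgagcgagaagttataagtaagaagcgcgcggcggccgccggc
Klf6: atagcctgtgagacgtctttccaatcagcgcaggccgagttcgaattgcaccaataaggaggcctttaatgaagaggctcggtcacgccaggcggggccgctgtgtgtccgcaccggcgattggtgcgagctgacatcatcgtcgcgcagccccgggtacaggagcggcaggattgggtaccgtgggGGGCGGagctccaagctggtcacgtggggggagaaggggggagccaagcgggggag

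The whole window of 300 bases held 6 GC boxes in Klf3, 4 in Klf4, 3 in Klf13 and 2 in Klf2. It held 1 each in Klf6 and Klf7 and 0 in Klf9. At least 1 was held by 35.9% of 27025 promoters of that length. The MEF2 consensus was matched in Klf2 alone among the 7 windows and in 0.566% of all promoters. That match began 118 bases before the RefSeq start of Klf2, and it was looked for after the sequence had been seen. The RefSeq start lies inside the gene as annotated here, and the printed sequence ends at the base before the gene. Klf3 held the most CACCC boxes, 5 in its window. Klf7 held 3, Klf2, Klf9 and Klf13 held 1 each, and Klf4 and Klf6 held 0. At least 1 was held by 56.7% of promoters. The cAMP response element core was present in 5 of the 7 windows, those of Klf2, Klf3, Klf4, Klf9 and Klf13, and in 21% of all promoters. A match describes the letters in a window and not the binding of a factor.

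Total counts per culture lay between 41131209 and 77699206, with a median of 52986574. Of 7 macrophage markers, 6 were above 10 TPM (a level scaled for transcript length and library size) in every culture, the exception being Mertk, and their summed level was 5697 TPM or more. Markers of T, NK, dendritic, mast and erythroid cells and megakaryocytes stayed low, with sums of at most 3.65, 1.35, 1.44, 4.74, 0.355 and 2.40 TPM, while Cd79b, S100a8, S100a9, Col1a1, Col1a2 and Kdr reached 10 TPM in some culture. Summed over each list, B cell markers reached 21.1, neutrophil markers 112, endothelial markers 20.0 and fibroblast markers 136 TPM. Kdr was higher (log2 fold change 5.77) and Cd79b lower (−2.23) in LPS cultures at 16 h, and the part of other cells in the KLF values was not tested. In bulk RNA, a change in the share of a cell type cannot be told apart from a change in RNA per cell. A pair of libraries stood apart from their groups. Control 16 h replicate 5 had 16690 detected genes, 9.58% of its counts on ribosomal protein genes and a median correlation of 0.911 with its group, and LPS 16 h replicate 4 had 16011 detected genes and a median correlation of 0.940. The other 26 libraries had 17535 to 20593 detected genes, 2.47% to 7.22% ribosomal protein counts and median correlations of 0.974 to 0.993. Macrophage markers were also low in this pair. Their sum was 6437 TPM in Control 16 h replicate 5, against 28287 TPM or more in the other cultures of its group. In LPS 16 h replicate 4 it was 5697 TPM, against 11443.5 TPM or more in its group. Results at 16 h are given with and without this pair where it matters, a choice made after the data had been seen.

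Compared per transcript length, Klf6 was by far the most abundant of the 8 genes in every group. Its level was 161 ± 21.5 TPM (SD, n = 5) in control cultures at 3.5 h and 447 ± 36.1 TPM (n = 4) in LPS cultures at that time. Klf10 was next in control cultures at 3.5 h with 70.6 ± 13.6 TPM, followed by Klf13 (29.6 ± 6.57 TPM), Klf2 (21.7 ± 5.69 TPM) and Klf4 (16.8 ± 4.65 TPM). In that group the cultures of Klf2 overlapped both those of Klf13 and those of Klf4, which did not overlap each other. Klf3 (6.39 ± 1.08 TPM), Klf9 (4.52 ± 2.14 TPM) and Klf7 (2.42 ± 1.30 TPM) were the lowest. Klf6 and Klf13 reached 10 TPM in all 28 cultures, Klf2 and Klf10 in 27, Klf4 in 12, Klf3 in 10, Klf7 in 1 and Klf9 in 0.

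**Figure D1:**
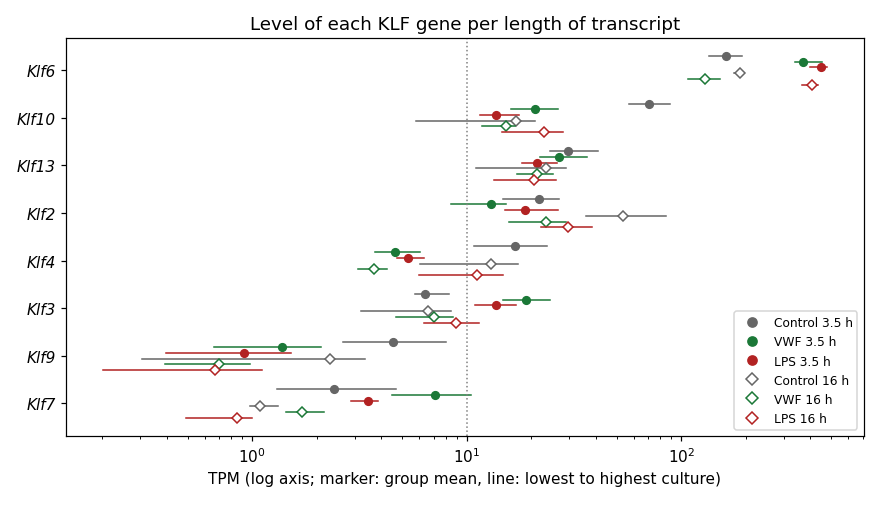
TPM of the 8 KLF genes on a log axis, with the mean of each group as a marker and a line from its lowest to its highest culture. Klf6 lies above 100 TPM in all groups, while Klf9 stays below the dotted line at 10 TPM throughout.

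Expression within a gene is given below as CPM, the count scaled to library size and TMM factors, and differences as log2 fold changes with their SE. Genes entered a test if any culture compared had 10 TPM or more, and a gene was called at an adjusted p under 0.05 with an absolute log2 fold change over 1. After VWF at 3.5 h, Klf3, Klf6 and Klf7 were called higher and Klf4 and Klf10 lower, 3 and 2 of the 7 members tested, against 9.1% of all tested genes called higher and 5.59% called lower. After VWF at 16 h, 5 members were tested, none was called higher and Klf2 and Klf4 were called lower (all genes: 4.55% higher, 4.15% lower). After LPS at 3.5 h, 6 members were tested, of which Klf3 and Klf6 were called higher and Klf10 lower (all genes: 12.8% higher, 11.8% lower). After LPS at 16 h, Klf6 was the 1 member called of 6, in the higher direction (all genes: 15.3% higher, 12.4% lower). Both treatments were compared with the same control cultures, so that their values are not independent of each other. The balance of calls over all genes depends on the scaling, because the TMM factors of LPS cultures (0.729 to 0.845) were lower than those of control cultures (0.944 to 1.19). Scaled by library size alone, 48.3% instead of 62% of all calls were in the higher direction after VWF at 3.5 h, 24.1% instead of 52.1% after LPS at 3.5 h, and 25.2% instead of 55.2% after LPS at 16 h. The median of all genes then moved to −0.22, −0.55 and −0.59 in these comparisons, and the values of members given here are relative to a median near 0.

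The filter of 10 TPM decides which members enter. Klf4 passed it between VWF and control, and between LPS and control at 3.5 h, only through control cultures. Klf3 and Klf7 passed it at 3.5 h only through treated cultures. In the comparisons of LPS with control and with VWF at 16 h, Klf3 passed it only through LPS 16 h replicate 3. The presence of these genes among the tested genes thus follows from a difference. A fit on all genes with sufficient counts (filterByExpr of edgeR) held all 8 members in every comparison, and it is used below wherever a member was under 10 TPM. In that fit 3 members were called higher and 3 lower after VWF at 3.5 h, with Klf9 added to the lower ones (all genes: 8.54% higher, 6.29% lower), and 0 higher and 3 lower after VWF at 16 h (all genes: 4.26% higher, 5.21% lower). After LPS it called 3 members higher and 2 lower at 3.5 h (all genes: 12.8% higher, 14.7% lower), and 3 higher and 0 lower at 16 h (all genes: 14.3% higher, 13.6% lower), namely Klf3, Klf6 and Klf10.

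**Figure D2:**
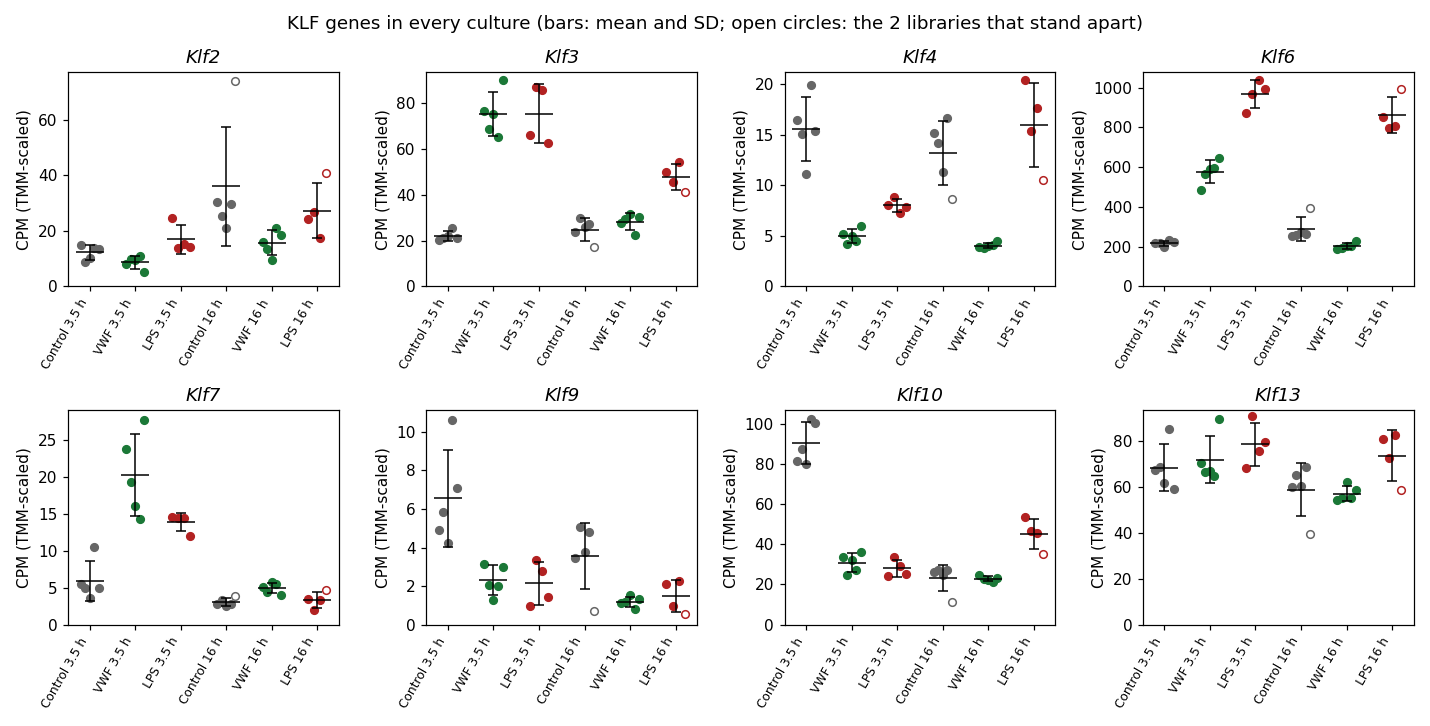
CPM of the 8 KLF genes in every culture, 1 panel per gene, with group mean and SD as black bars and linear axes from 0. VWF cultures lie below control cultures for Klf4 at both times, and LPS cultures lie above all others for Klf6. Open circles are Control 16 h replicate 5 and LPS 16 h replicate 4.

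**Figure D3:**
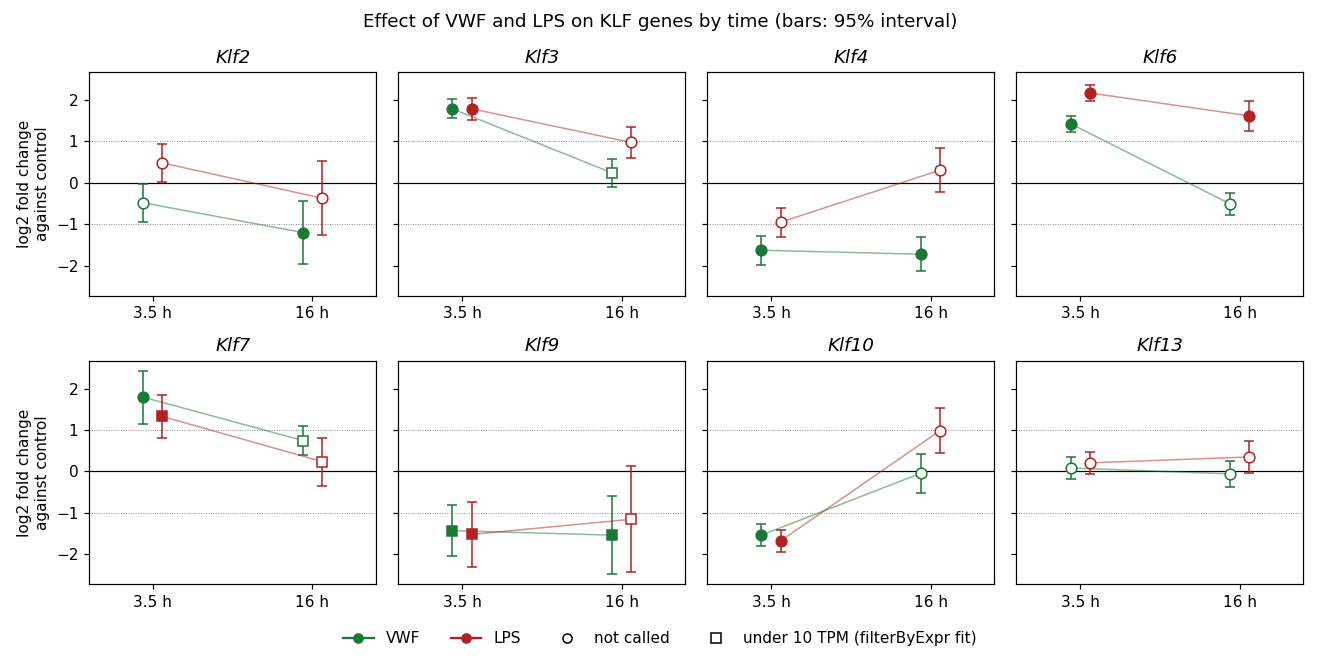
Log2 fold change of each KLF gene against control at 3.5 h and 16 h after VWF (green) and LPS (red), with 95% intervals. Filled markers are called, squares come from the filterByExpr fit because the gene stayed under 10 TPM, and dotted lines mark 1 and −1. The VWF line of Klf6 crosses 0 between the times, whereas its LPS line stays above 1.

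Klf6 encodes an activator known as an early response gene. It was higher early after both treatments, and at 16 h it stayed higher after LPS while VWF cultures lay below control. In control cultures at 3.5 h it stood at 216, 216, 197, 231 and 222 CPM, and in VWF cultures at 487, 564, 589, 594 and 647 CPM. LPS cultures at that time had 871, 965, 1036 and 994 CPM. The 3 groups did not overlap, with a log2 fold change of 1.42 (SE 0.09, adjusted p = 1.05e-07) for VWF and of 2.16 (SE 0.09, adjusted p = 2.58e-09) for LPS. At 16 h the control cultures had 253, 260.2, 272, 261 and 392 CPM, the VWF cultures 187, 193, 204, 201 and 230.0 CPM, and the LPS cultures 854, 797, 809 and 994 CPM. All 5 VWF cultures then lay below every control culture, by 0.51 on the log2 scale (log2 fold change −0.51, SE 0.12, adjusted p = 0.00953), which is short of the fold threshold. LPS cultures remained far above both groups (1.61, SE 0.16, adjusted p = 1.92e-05).

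The loss of the VWF effect on Klf6 was itself tested. From 3.5 h to 16 h the VWF effect changed by −1.90 (SE 0.16, adjusted p = 1.36e-08), and the LPS effect by −0.54 (SE 0.18, adjusted p = 0.0194). Klf6 was called lower in the change of the VWF effect together with Klf3 and Klf7 (all genes: 7.77%), and Klf10 was called in the other direction (all genes: 5.69%). Klf3 and Klf7 passed the filter there only through VWF cultures at 3.5 h, where they were high, so nothing is read from this count. VWF and LPS cultures differed in Klf6 by −0.72 (SE 0.10, adjusted p = 0.000136) at 3.5 h and by −2.08 (SE 0.10, adjusted p = 1.46e-07) at 16 h. This difference grew by −1.38 (SE 0.14, adjusted p = 2.87e-07). Between times Klf6 fell in VWF cultures by 1.49 on the log2 scale (SE 0.09, adjusted p = 8.88e-08), while the value in LPS cultures was −0.13 (SE 0.11, adjusted p = 0.309, 95% interval −0.38 to 0.11). Without the pair of libraries that stood apart, the VWF effect on Klf6 at 16 h was −0.38 (adjusted p = 0.00111) and the LPS effect 1.67.

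Klf4, an activator tied to alternative activation, was lower after VWF at both times. Control cultures had 16.4, 15.1, 11.1, 19.9 and 15.4 CPM at 3.5 h, and VWF cultures 5.22, 4.20, 4.98, 4.51 and 6.0 CPM. Every VWF culture lay below every control culture (−1.63, SE 0.16, adjusted p = 6.94e-06). At 16 h the values were 15.2, 14.1, 11.3, 16.6 and 8.67 CPM in control cultures and 3.86, 3.80, 3.99, 4.06 and 4.44 CPM in VWF cultures. The groups were again apart (−1.73, SE 0.18, adjusted p = 4.87e-05), and the change of the effect between times was −0.06 with a 95% interval of −0.55 to 0.44.

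LPS cultures followed another course for Klf4. They had 8.01, 8.87, 7.26 and 7.86 CPM at 3.5 h, all below control, with a log2 fold change of −0.95 (SE 0.16, adjusted p = 0.00029) that misses the fold threshold. With scaling by library size alone this value was −1.5 and called, and it was also called without LPS 3.5 h replicate 2 (−1.01) or Control 3.5 h replicate 3 (−1.06). At 16 h LPS cultures had 20.4, 15.4, 17.6 and 10.6 CPM, which overlapped control cultures (0.30, SE 0.24, adjusted p = 0.31), and library size scaling turned this value to −0.26. The LPS effect on Klf4 thus differed between times by 1.27 (SE 0.29, adjusted p = 0.00177), and Klf4 and Klf10 were the 2 of 6 tested members called in this direction (all genes: 13.5% higher, 12.8% lower). VWF cultures lay below LPS cultures at 16 h by −1.98 (SE 0.18, adjusted p = 9.78e-06), and Klf4 and Klf6 were 2 of 6 tested members called lower in that comparison (all genes: 11.1% higher, 14.5% lower, with 72.1% instead of 43.3% of calls higher under library size scaling). At 3.5 h Klf4 was under 10 TPM in all VWF and LPS cultures, and VWF cultures lay below LPS cultures in the filterByExpr fit (−0.71, SE 0.13, adjusted p = 0.00151). Within LPS cultures Klf4 was the 1 member of 6 called over time, higher at 16 h (1.03, SE 0.20, adjusted p = 0.00203; all genes: 14.6% higher, 13.5% lower). It passed the filter only through LPS cultures at 16 h, where it was high, so nothing is read from this count. The value fell short of the fold threshold with filterByExpr (0.998), library size scaling (0.98), all groups in 1 fit (0.98) and the replicate block (0.99). It was between 0.88 and 0.99 without LPS 3.5 h replicate 3 or LPS 16 h replicate 1 or 3. The VWF to LPS difference changed with time by −1.35 (SE 0.22, adjusted p = 7.67e-05), and Klf4, Klf6 and Klf10 were 3 of 7 members called lower there (all genes: 10.7% higher, 14.3% lower, with 56.8% instead of 42.8% of calls higher under library size scaling). Under that scaling Klf10 was not called (−0.996). In this comparison, and between VWF and LPS at 16 h, Klf4 passed the filter only through LPS cultures at 16 h, where it was high, so nothing is read from the counts.

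Klf2, an activator that holds macrophages and endothelial cells in a quiescent state, rose with time in control cultures. It stood at 14.9, 8.87, 10.1, 13.8 and 13.6 CPM at 3.5 h and at 30.6, 25.3, 21.1, 29.6 and 73.9 CPM at 16 h, the last being Control 16 h replicate 5. All control cultures at 16 h were above all those at 3.5 h (1.57, SE 0.34, adjusted p = 0.00439), and without the culture that stood apart the value was 1.12 (adjusted p = 0.000337). Klf2 was the 1 member of 5 called higher in control cultures over time (all genes: 4%), and Klf10 the 1 called lower (all genes: 5.09%).

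After VWF, Klf2 had 8.12, 9.93, 9.35, 11.1 and 5.10 CPM at 3.5 h, which overlapped control (−0.49, SE 0.21, adjusted p = 0.0852). At 16 h it had 16.0, 13.6, 9.57, 21.03 and 18.4 CPM, with every VWF culture below every control culture (−1.20, SE 0.34, adjusted p = 0.0228). This call depends on Control 16 h replicate 5, without which the log2 fold change was −0.78 (SE 0.20, adjusted p = 0.0101). It was also lost without VWF 16 h replicate 1 (adjusted p = 0.0514), replicate 2 (adjusted p = 0.0593) or replicate 3 (adjusted p = 0.054), and with no filter on low levels (−1.13, adjusted p = 0.0531). LPS cultures had 24.6, 13.8, 15.2 and 14.2 CPM at 3.5 h and 24.3, 26.8, 17.3 and 41.0 CPM at 16 h, overlapping control at both times. The LPS values were 0.48 (SE 0.21, adjusted p = 0.064) and −0.37 (SE 0.40, adjusted p = 0.461), and the earlier one was −0.06 with library size scaling. At 3.5 h VWF cultures lay below all LPS cultures for Klf2 (−0.94, SE 0.24, adjusted p = 0.00849). In that comparison 0 of 6 tested members were called by edgeR and 0 by DESeq2 (all genes: 4.71% higher, 6.71% lower, with 69.8% instead of 41.2% of calls higher under library size scaling). Klf2, Klf6 and Klf7 had an adjusted p under 0.05 there and missed only the fold threshold. Klf2 passed the fold threshold without LPS 3.5 h replicate 2 (−1.02) or replicate 4 (−1.01), or VWF 3.5 h replicate 4 (−1.04).

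Klf7 encodes a relative of Klf6 with low expression in these cells, and its VWF response was early. Control cultures had 5.53, 5.00, 3.57, 10.5 and 4.93 CPM at 3.5 h, VWF cultures 23.7, 19.2, 16.1, 14.3 and 27.7 CPM, and LPS cultures 14.6, 14.5, 14.5 and 12.1 CPM. Both treated groups lay above all control cultures, with log2 fold changes of 1.79 (SE 0.29, adjusted p = 0.000352) for VWF and, in the filterByExpr fit, 1.33 (SE 0.24, adjusted p = 0.000456) for LPS, the latter 0.71 and not called with library size scaling. At 16 h the values were 2.83, 3.34, 2.53, 2.75 and 3.85 CPM in control cultures and 5.13, 4.42, 5.75, 5.50 and 4.04 CPM in VWF cultures. VWF cultures were still all above control (0.75, SE 0.16, adjusted p = 0.00626, filterByExpr fit), while LPS cultures, at 3.40, 1.99, 3.37 and 4.67 CPM, overlapped them.

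From 3.5 h to 16 h Klf7 fell by 2.02 on the log2 scale in VWF cultures (SE 0.19, adjusted p = 3.08e-06), and Klf3 and Klf6 were also called lower there (all genes: 9.15% higher, 12.2% lower). Klf3 and Klf7 passed the filter only through the 3.5 h cultures, where they were high, so nothing is read from this count. In LPS cultures the difference between times was −2.05 (SE 0.24, adjusted p = 8.78e-05, filterByExpr fit). The VWF effect on Klf7 changed by −1.07 (SE 0.34, adjusted p = 0.0211). The latter value fell short of the fold threshold without Control 3.5 h replicate 3 (−0.93) or Control 16 h replicate 5 (−0.99) and with library size scaling (−0.94). Klf7 was tested above 10 TPM only through VWF 3.5 h replicate 5, its 1 culture at that level. The antisense lincRNA Gm26649 overlaps 39.3% of the exon length of Klf7 and was listed at 0 counts in all cultures. The strand setting of the counting is not given, so reads of this pair cannot be told apart.

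Klf3 encodes the repressor of the group that works through CtBP, and it rose early after both treatments with values close to each other. It stood at 20.3, 21.3, 21.8, 25.6 and 21.1 CPM in control cultures at 3.5 h, at 76.5, 68.8, 75.1, 65.1 and 89.9 CPM in VWF cultures, and at 66.0, 87.2, 85.6 and 62.6 CPM in LPS cultures. Treated and control cultures were far apart, at 1.78 (SE 0.10, adjusted p = 9.04e-08) for VWF and 1.78 (SE 0.12, adjusted p = 2.13e-07) for LPS. The difference between VWF and LPS was 0.03 with a 95% interval of −0.26 to 0.32. At 16 h the values were 23.5, 29.7, 26.0, 27.3 and 17.0 CPM in control cultures, 27.6, 29.5, 31.6, 22.3 and 30.0 CPM in VWF cultures, and 49.9, 45.3, 54.4 and 41.0 CPM in LPS cultures.

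VWF cultures then overlapped control cultures for Klf3 (0.24, 95% interval −0.09 to 0.57, filterByExpr fit), and LPS cultures did not (0.97, SE 0.16, adjusted p = 0.000764). Scaled by library size alone, LPS and control cultures at 16 h overlapped, with means of 37.9 ± 6.91 and 28.4 ± 7.44 CPM. VWF cultures had 30.7 ± 5.16 CPM under that scaling. The LPS value at 16 h sat on the fold threshold, at 1.05 in the filterByExpr fit. The VWF effect on Klf3 changed with time by −1.57 (SE 0.19, adjusted p = 1.7e-06) and the LPS effect by −0.79 (SE 0.21, adjusted p = 0.00466). VWF and LPS cultures differed at 16 h by −0.74 (SE 0.13, adjusted p = 0.000598). Within VWF cultures, Klf3 was lower at 16 h than at 3.5 h by −1.40 (SE 0.12, adjusted p = 1.32e-06).

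Klf10, a repressor known as an early gene of TGF-beta signaling, was lower after both treatments at 3.5 h. Control cultures had 81.3, 87.4, 79.8, 102 and 100.2 CPM, VWF cultures 33.4, 24.8, 32.3, 27.1 and 36.4 CPM, and LPS cultures 24.0, 33.6, 29.1 and 25.4 CPM. Both treated groups were below all control cultures, by −1.54 (SE 0.12, adjusted p = 1.16e-06) for VWF and −1.68 (SE 0.12, adjusted p = 4.35e-07) for LPS. The control cultures themselves reached the lower level by 16 h, with 26.1, 27.1, 24.5, 27.0 and 11.4 CPM (−1.96 against 3.5 h, SE 0.22, adjusted p = 8.63e-05). All cultures had received fresh medium at the start, and its part in the time course of the controls was not tested.

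At 16 h VWF cultures had 24.8, 22.8, 22.3, 21.03 and 23.3 CPM of Klf10 and LPS cultures 53.6, 46.4, 45.7 and 35.4 CPM. VWF cultures lay inside the range of control cultures (−0.04, SE 0.21, adjusted p = 0.914), whereas without the pair of libraries that stood apart they differed by −0.22 (adjusted p = 0.028). LPS cultures lay above all control cultures (0.99, SE 0.25, adjusted p = 0.00728), just under the fold threshold, which the value passed in the filterByExpr fit (1.07). This separation depends on the TMM factors. Scaled by library size alone, the means were 36.0 ± 7.44 CPM in LPS and 26.9 ± 9.08 CPM in control cultures, with SDs that overlapped. At 3.5 h the library size means were 22.7 ± 3.66 CPM in LPS and 105 ± 13.7 CPM in control cultures. The direction of the LPS effect on the means of Klf10 was thus opposite at the 2 times with either scaling. In TMM-scaled values the LPS effect changed by 2.68 (SE 0.29, adjusted p = 7.75e-07), the largest interaction of any member. For VWF the change was 1.53 (SE 0.25, adjusted p = 5.83e-05). VWF cultures were below LPS cultures at 16 h by −0.98 (SE 0.12, adjusted p = 6.69e-05), and by −1.08 without LPS 16 h replicate 4.

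Klf9 is a glucocorticoid-responsive repressor, and it reached at most 8.02 TPM in any culture. Control cultures had 4.90, 5.83, 4.26, 10.6 and 7.11 CPM at 3.5 h, VWF cultures 3.17, 2.08, 1.26, 2.00 and 3.01 CPM, and LPS cultures 0.953, 3.34, 2.80 and 1.45 CPM. Both treated groups lay below control, at −1.43 (SE 0.28, adjusted p = 0.00134) for VWF and −1.52 (SE 0.36, adjusted p = 0.00351) for LPS in the filterByExpr fit. At 16 h the controls had 3.45, 5.05, 3.79, 4.79 and 0.697 CPM, VWF cultures 1.10, 1.17, 1.54, 0.801 and 1.32 CPM, and LPS cultures 2.12, 0.984, 2.26 and 0.559 CPM. Control 16 h replicate 5, the culture with 36 counts, lay below every VWF culture, and the others lay above them. VWF cultures differed from control by −1.54 (SE 0.43, adjusted p = 0.0237), and the value for LPS was −1.16 (SE 0.57, adjusted p = 0.128). Without the pair of libraries that stood apart, Klf9 was called lower after both VWF (−1.80, SE 0.20, adjusted p = 4.98e-05) and LPS (−1.15, SE 0.28, adjusted p = 0.00409). With them, the call after VWF was lost with the replicate block (adjusted p = 0.112) and without VWF 16 h replicate 1 (adjusted p = 0.058), 2 (adjusted p = 0.0587) or 4 (adjusted p = 0.0574), or Control 16 h replicate 2 (adjusted p = 0.057) or 4 (adjusted p = 0.0569). The LPS value was called without Control 16 h replicate 5 (−1.42), with library size scaling (−1.79), with all groups in 1 fit (−1.19) and with the replicate block (−1.56).

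Klf13, a Sin3A-binding factor known from lymphocytes, was the flat member. Its group means lay between 57.0 and 78.4 CPM, a span of 0.45 on the log2 scale, and edgeR called it in 0 of the 12 comparisons. In 2 of them the adjusted p was under 0.05 and only the fold threshold was missed. Against control the values were 0.08 (95% interval −0.19 to 0.35) and −0.06 (−0.38 to 0.26) for VWF at 3.5 h and 16 h, and 0.21 (−0.06 to 0.47) and 0.35 (−0.04 to 0.73) for LPS. With library size scaling both LPS values were negative, −0.33 and −0.22. VWF and LPS cultures differed at 16 h by −0.36 (SE 0.11, adjusted p = 0.0189).

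The order of the group means of TMM-scaled CPM gives each member's profile. For Klf6 the order was LPS 3.5 h, LPS 16 h, VWF 3.5 h, control 16 h, control 3.5 h and VWF 16 h, and the pairs whose cultures overlapped were the 2 LPS groups and the last pair. For Klf4 the VWF groups were at the bottom, below LPS 3.5 h without overlap, and the top 3 groups (LPS 16 h, control 3.5 h, control 16 h) could not be told apart by their spread. For Klf3 LPS 3.5 h and VWF 3.5 h overlapped at the top, LPS 16 h stood alone below them, and VWF 16 h and both controls overlapped at the bottom. For Klf10 the 3.5 h controls stood alone at the top, and each later neighbor in the order overlapped the next. For Klf7 both treated groups at 3.5 h stood above all others. For Klf2, Klf9 and Klf13 every pair of neighbors overlapped.

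Among all 8867 genes that reached 10 TPM in any culture, the pattern most like that of Klf3 over the 6 group means was Birc2, an inhibitor of apoptosis gene, with a root mean square difference of 0.11 in log2 CPM. For Klf6 the closest were Jarid2, a subunit of the Polycomb complex PRC2 (0.17), and Triobp (0.18). For Klf2 they were 1600010M07Rik and Fam84b (both 0.18), and for Klf10 Pcyt1a, an enzyme of phosphatidylcholine synthesis (0.22), and Zbtb2 (0.23). Klf7 was nearest to Rcl1 (0.22) and Slc44a1, a choline transporter (0.27), and Klf9 to Ercc6, a DNA repair gene (0.24), and Gm26532 (0.24). Klf4 had the least close neighbors, Dhrs9 and Plk2, a Polo-like kinase (both 0.28). The second gene for Klf3 was Trim56 (0.16). Klf13 was left out because its group means span less than 1. The group means included the pair of libraries that stood apart, and the search was not repeated without them.

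The remaining KLF and SP genes were mostly under the filter. Of 10 other KLF genes, 1 was tested after VWF at 3.5 h and 2 after LPS at 3.5 h, and Klf18 was not analysed here. Klf8, which encodes a CtBP-binding repressor like Klf3, was called higher after LPS at 3.5 h (4.43, SE 0.19, adjusted p = 6.12e-09; all genes: 12.8% higher). Its level was 1.42 ± 0.351 CPM in control cultures, 3.26 ± 0.856 CPM in VWF cultures and 30.6 ± 5.27 CPM in LPS cultures at that time, and 3.30 ± 0.647 CPM in LPS cultures at 16 h. VWF and LPS cultures differed in Klf8 by −3.20 (SE 0.20, adjusted p = 9.82e-07) at 3.5 h. In both comparisons Klf8 passed the filter only through LPS cultures, where it was high, so its presence among the tested genes follows from that level. Klf16 was tested in all comparisons with control and was called in none, with its largest value after LPS at 16 h (−0.71, adjusted p = 0.00288). Of 9 SP genes, 3 were tested against control, and the 1 called was Sp3, lower after LPS at 3.5 h (−1.17, adjusted p = 7.97e-07; all genes: 12.8% higher, 11.8% lower).

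**Figure D4:**
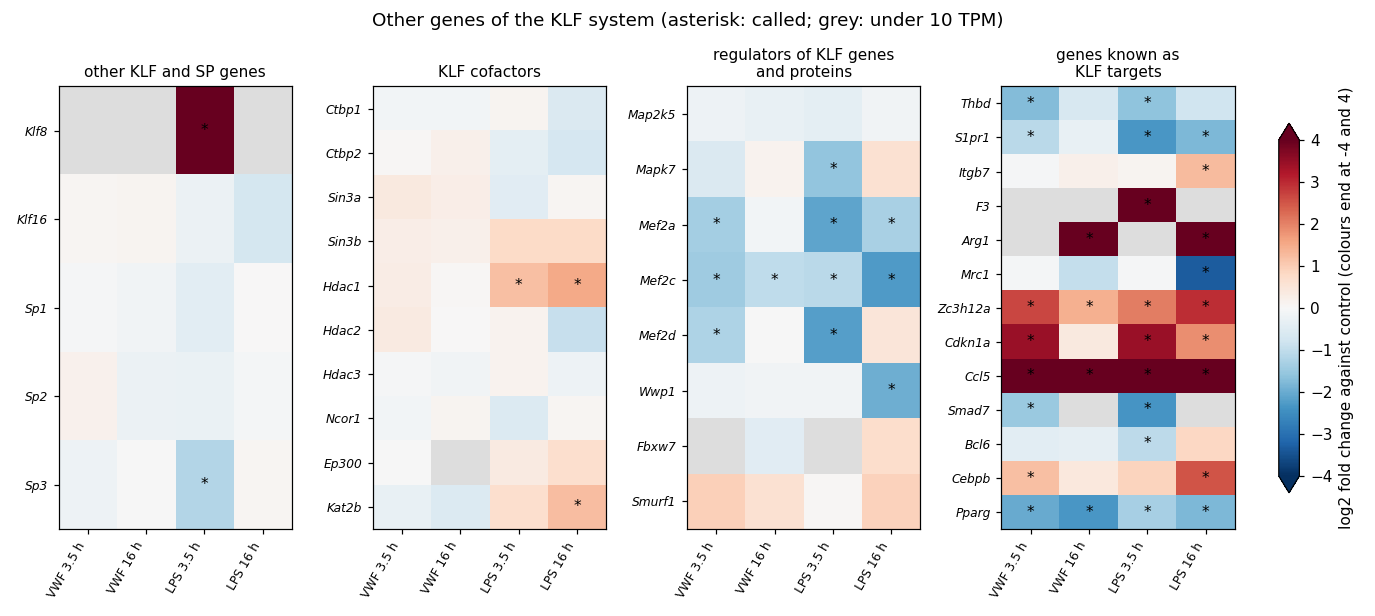
Log2 fold changes against control of other KLF and SP genes, KLF cofactors, regulators of KLF genes or proteins, and known KLF targets, as colors that end at −4 and 4. Asterisks mark called genes and grey cells are genes under 10 TPM in that comparison. Mef2a, Mef2c and Mef2d are called lower after both treatments at 3.5 h, and Klf8 is dark red after LPS at 3.5 h.

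Regulators of KLF genes and proteins included the ERK5 kinase Mapk7, its activator Map2k5, the MEF2 factors and several ubiquitin ligases. After VWF at 3.5 h, 0 of the 7 tested were called higher and 3 lower, with a median of −0.58 against −0.01 over all genes, of which 9.1% were called higher and 5.59% lower. These were Mef2a (−1.36, SE 0.13), Mef2c (−1.42, SE 0.14) and Mef2d (−1.23, SE 0.14). After LPS at 3.5 h, 4 of 7 were called lower (all genes: 11.8%), namely Mef2a (−2.11), Mef2c (−1.08), Mef2d (−2.19) and Mapk7 (−1.59). Mef2a, the highest of the 3, was at 559.7 ± 98.9 CPM in control cultures, 217 ± 21.2 CPM in VWF cultures and 129 ± 13.2 CPM in LPS cultures at 3.5 h. At 16 h VWF left 1 of 8 called lower (all genes: 4.15%), Mef2c (−1.01, SE 0.12, adjusted p = 0.000114). LPS at 16 h left 3 of 8 called lower (all genes: 12.4%), Mef2a (−1.30), Mef2c (−2.26) and Wwp1 (−1.96), a ubiquitin ligase that marks KLF proteins for degradation. Mef2a and Mef2d, like Klf10, were also lower in control cultures at 16 h than at 3.5 h (−2.19 and −1.29). Whether these genes bear on the KLF values was not tested.

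Few KLF cofactors were called. After VWF at 3.5 h edgeR called 0 of 10 tested (all genes: 9.1% higher, 5.59% lower). Of these 10, 4 had an unadjusted p under 0.05 in that test, against 4062 of 8200 over all genes. After LPS 1 of 10 was called higher at 3.5 h (all genes: 12.8%) and 2 of 10 at 16 h (all genes: 15.3%). Hdac1, a histone deacetylase of the Sin3 complex, was higher after LPS at 3.5 h (1.21, SE 0.08, adjusted p = 2.43e-07) and 16 h (1.51, SE 0.09, adjusted p = 7.24e-07). Kat2b, an acetyltransferase, was higher after LPS at 16 h (1.24, SE 0.18, adjusted p = 0.000331). The genes of Ctbp1, Ctbp2 and Sin3a, the partners of Klf3 and of the Klf9 group, were called in none of the comparisons with control.

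Of 16 genes known as KLF targets, 11 were tested after VWF at 3.5 h, and 4 were called higher and 4 lower (all genes: 9.1% higher, 5.59% lower). The higher ones were Ccl5, a chemokine (8.49, SE 0.32), Cdkn1a, a cell cycle inhibitor (3.45, SE 0.12), Zc3h12a, which encodes the RNase Regnase-1 (2.67, SE 0.14), and Cebpb (1.21, SE 0.19). The lower ones were Pparg, a nuclear receptor (−2.02, SE 0.12), Thbd, which encodes the anticoagulant receptor thrombomodulin (−1.72, SE 0.34), Smad7 (−1.47, SE 0.11) and S1pr1 (−1.08, SE 0.11). Thbd and S1pr1 are targets that KLF2 is known to activate, and Thbd stood at 8.42 ± 2.14 CPM in control and 2.52 ± 1.32 CPM in VWF cultures. Klf2 itself stood at −0.49 at 3.5 h (SE 0.21, edgeR adjusted p = 0.0852), which was not called. Neither gene was among the targets called after VWF at 16 h. Whether any KLF member bears on these genes was not tested. After LPS at 3.5 h, 4 of 12 were called higher and 5 lower (all genes: 12.8% higher, 11.8% lower), and the median was 0.03.

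At 16 h the targets called after VWF were Ccl5 (8.79), Arg1 (5.88), Zc3h12a (1.41) and, in the lower direction, Pparg (−2.33, SE 0.23, adjusted p = 2.85e-05), 3 higher and 1 lower of 11 (all genes: 4.55% higher, 4.15% lower). Arg1 encodes arginase, a marker of alternative activation that KLF4 is known to induce, and it was also higher after LPS (7.78, SE 0.61). After LPS at 16 h 6 of 11 targets were called higher and 3 lower (all genes: 15.3% higher, 12.4% lower), among the latter Mrc1, the mannose receptor (−3.32, SE 0.13, adjusted p = 5.84e-08). All 46 called values of these lists against control had the same direction with CPM scaled by library size alone.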

How the data were processed

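The authors mapped paired-end reads to GRCm38 (mm10) with STAR and deposited raw read counts per Ensembl gene for 28 cultures, without normalization. Which annotation, strand setting and treatment of multi-mapped reads they used is not given in the sources used here. Counts were matched to GENCODE M21, and TPM was computed from exon lengths, available for 30143 of 30159 genes with counts. A gene was tested when 1 culture of the comparison reached 10 TPM, as in the study's methods. The test was edgeR 4.0.16 quasi-likelihood (R 4.3.3, TMM factors, robust dispersion) on the groups compared, adjusted by Benjamini-Hochberg over all tested genes, with SEs derived from the F statistic. The study used DESeq2, an alternative here (1.42.0). Log2 CPM used a prior count of 2.

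Alternatives were other factors, library size scaling, other filters, all groups in 1 fit, no fold threshold, the replicate number as a block, and leaving out each culture. The fit without both libraries that stand apart was chosen after seeing the data, as were the alternatives on the filterByExpr genes for members under 10 TPM. Deviations of same-numbered cultures correlated over 0.1 in every pair for VWF and LPS cultures at 16 h (0.16 to 0.781, 4 pairs) and in no other comparison, a pairing seen in the data and not stated in the labels. No duplicates were found (chi-square per degree of freedom at least 15.8). The code was tested on simulated data. The members and lists were chosen with earlier results of these data known. Genes named are the members, the listed genes, and the 2 genes most like each member, except where stated.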

Additional observations from a re-analysis of the deposited data

Results flagged for a closer look

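In 8 of 48 groups of a member's values, 1 culture lay far from the others by Dixon's test, which chance alone does in about 1 in 20 groups. Control 16 h replicate 5, the library that stands apart, accounts for 3 of them: 73.9 CPM of Klf2 against at most 30.6 CPM, 392 CPM of Klf6 against at most 272 CPM, and 11.4 CPM of Klf10 against at least 24.5 CPM in the other cultures of its group. Control 3.5 h replicate 4 was high in Klf3 (25.6 CPM, next 21.8 CPM) and Klf7 (10.5 CPM, next 5.53 CPM). LPS 3.5 h replicate 1 was high in Klf2 (24.6 CPM, next 15.2 CPM). LPS 3.5 h replicate 4 was low in Klf7 (12.1 CPM, next 14.5 CPM). VWF 3.5 h replicate 5 was high in Klf13 (89.6 CPM, next 70.5 CPM).

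The effect of a treatment differed between times in 9 tests of a member. The VWF effect changed in Klf3 (−1.57), Klf6 (−1.90), Klf7 (−1.07) and Klf10 (1.53), the LPS effect in Klf4 (1.27) and Klf10 (2.68), and the difference between VWF and LPS in Klf4 (−1.35), Klf6 (−1.38) and Klf10 (−1.16), all as log2 values with adjusted p of at most 0.0211 in edgeR's quasi-likelihood test.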

How the results depend on the processing

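Of 1908 alternative values of 96 fold changes of members, 1778 kept their direction and side of the threshold, 28 lost a call, 41 gained one, and 61, all of values that were not called, changed sign. With library size scaling, the values that changed sign were Klf13 after VWF (−0.13) and LPS (−0.33) at 3.5 h and LPS at 16 h (−0.22), Klf13 between VWF and LPS at 3.5 h (0.21) and 16 h (0.092), Klf2 after LPS at 3.5 h (−0.061), Klf4 (−0.26) and Klf7 (−0.38) after LPS at 16 h, Klf9 between VWF and LPS at 16 h (0.11), the change of the VWF effect in Klf4 (0.046) and Klf9 (0.0032), and the change of the VWF to LPS difference in Klf7 (0.16). With filterByExpr and with no filter these were Klf10 (0.022, 0.026) and Klf13 (0.0036, 0.0096) after VWF at 16 h, Klf3 between VWF and LPS at 3.5 h (−0.033, −0.022) and the latter value of Klf7 (0.063, 0.044). Klf3 was −0.0014 there with the filter over all cultures, and Klf7 0.037 with all groups in 1 fit. With the replicate number as a block they were Klf10 after VWF (0.020) and Klf2 after LPS (0.0053) at 16 h, Klf3 between VWF and LPS at 3.5 h (−0.058) and the VWF to LPS difference of Klf2 over time (−0.076). The block took the calls of Klf4 in LPS cultures over time (0.99) and Klf9 after VWF at 16 h (−1.37), gave that of Klf9 after LPS at 16 h (−1.56), and changed no other call of a member, those of the paired VWF and LPS cultures at 16 h included. Without both libraries that stand apart they were Klf13 in LPS cultures over time (0.035) and Klf7 as above (0.19). Leaving out 1 culture gave −0.015 to 0.17 for Klf13 after VWF at 3.5 h and −0.18 to 0.0091 at 16 h, −0.22 to 0.028 for Klf10 after VWF at 16 h, −0.64 to 0.062 for Klf2 after LPS at 16 h, −0.067 to 0.11 for Klf3 between VWF and LPS at 3.5 h, −0.12 to 0.035 for Klf13 in LPS cultures over time, −0.20 to 0.046 for Klf4 and −0.36 to 0.080 for Klf9 in the change of the VWF effect, −0.17 to 0.36 for Klf9 between VWF and LPS at 3.5 h, and −0.12 to 0.40 for Klf2 and −0.21 to 0.19 for Klf7 in the change of the VWF to LPS difference. The cause was not tested.

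The number of members called after VWF at 16 h was 1 instead of 2 without both libraries that stand apart and 1 to 2 when 1 culture was left out. After LPS it was 5 instead of 3 at 3.5 h with filterByExpr or no filter. At 16 h it was 3 instead of 1 with either of these or no fold threshold (all genes with no fold threshold: 4293 of 7994). It was 1 to 3 there when 1 culture was left out. Between VWF and LPS it was 3 instead of 0 at 3.5 h with no fold threshold (all genes: 3768 of 7500), and 0 to 1 when 1 culture was left out. At 16 h it was 6 instead of 2 with no fold threshold (all genes: 4586 of 7574). Over time, with no fold threshold, it was 6 instead of 3 in VWF cultures (all genes: 5379 of 7927). For the LPS effect it was 4 instead of 2 (all genes: 4267 of 8748). In LPS cultures over time it was 3 instead of 1 with no fold threshold (all genes: 4257 of 6987). It was 2 there with no filter or the filter over all cultures. With library size scaling, all groups in 1 fit or the replicate block it was 0, and 0 to 1 when 1 culture was left out. DESeq2 gave the same numbers of members called as edgeR in all 12 comparisons. Over all genes, 679 to 2301 were called per comparison, against 1362 to 4116 with filterByExpr, 1378 to 4542 with no filter and 2163 to 5384 with no fold threshold. Low counts limit Klf9, whose libraries held 22 to 801 reads.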
